A study of Mus musculus with 24 samples.

Results

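The genes described here encode fatty acid binding proteins: Fabp7 and its relatives Fabp3, Fabp4 and Fabp5, followed in whole adrenal glands around the circadian day. These are 4 of the 18193 genes that the platform annotation names, and they are read by 9 of the 45101 probe sets: 1 for Fabp7, 2 for Fabp3, 4 for Fabp4 and 2 for Fabp5. Fabp7 was chosen by its 24 h amplitude, among the largest in these data, so its rhythm is given as a description without a test, and the relatives were named beside it with earlier results known. All samples were whole adrenals of male C57B/6J mice aged 3 months, titled wt for wild type, with no mutation or drug named in the labels. The mice were held for 2 weeks in a cycle of 12 h light and 12 h darkness and then released into constant darkness, so that no time point had light and no light-dark control was included. Glands were taken at 12 time points, every 4 h between 38 and 82 h after lights off, with 2 deposited samples at each. Projected circadian time (CT) is the hours after lights off minus 12, folded onto 24 h, so that CT 0 is the projected dawn and the study's times fall on CT 2, 6, 10, 14, 18 and 22.

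Fatty acid binding proteins are small cytosolic proteins that hold long-chain fatty acids, which dissolve poorly in water, and carry them between membranes, lipid droplets, mitochondria, peroxisomes and the nucleus. Family members differ in the tissues they mark. Fabp7 is the brain type, found in radial glia, astrocytes and other glia, and it favours polyunsaturated fatty acids such as docosahexaenoic acid. Fabp3 is the heart and muscle type and is also abundant in brown fat, Fabp4 is the adipocyte type, and Fabp5 is the epidermal type, which is shared by fat, endothelium and macrophages. In mouse brain, Fabp7 transcripts are known to cycle over the day, and the repressor encoded by the clock gene Nr1d1 has been described there as a regulator of Fabp7. The adrenal gland holds a steroid-producing cortex, which takes up and stores lipid, around a medulla of chromaffin cells, and it lies in a bed of fat.

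In RefSeq's gene table for GRCm38.p6, Fabp7 lies on chromosome 10, Fabp3 on chromosome 4, and Fabp4 and Fabp5 both on chromosome 3, with Fabp9 and Pmp2, which encode other members of the family, on the same chromosome. Promoter windows, from 250 bases before to 50 bases after the annotated start, were matched for 2 of the 4 genes, Fabp7 and Fabp3. They are shown because these genes set the contrast described below, an ordered daily course in Fabp7 and scattered levels in Fabp3. The windows were searched on both strands for AGGTCA, the hexamer bound by many nuclear receptors, for TAGGTCA, which is that hexamer with a T before it and overlaps it by construction, for the E-box CACGTG and for the D-box TTATGTAA. Capitals mark the only match, to TAGGTCA on the minus strand. Both sequences are RefSeq's, on the plus strand, 5′ to 3′, at chr10:57784673-57784972 for Fabp7 and at chr4:130308488-130308787 for Fabp3.
Fabp7: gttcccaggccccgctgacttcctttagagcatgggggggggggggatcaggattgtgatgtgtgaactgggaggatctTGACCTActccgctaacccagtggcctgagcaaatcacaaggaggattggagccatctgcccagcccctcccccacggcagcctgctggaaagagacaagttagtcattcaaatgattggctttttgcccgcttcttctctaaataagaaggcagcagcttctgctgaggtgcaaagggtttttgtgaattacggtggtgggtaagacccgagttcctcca
Fabp3: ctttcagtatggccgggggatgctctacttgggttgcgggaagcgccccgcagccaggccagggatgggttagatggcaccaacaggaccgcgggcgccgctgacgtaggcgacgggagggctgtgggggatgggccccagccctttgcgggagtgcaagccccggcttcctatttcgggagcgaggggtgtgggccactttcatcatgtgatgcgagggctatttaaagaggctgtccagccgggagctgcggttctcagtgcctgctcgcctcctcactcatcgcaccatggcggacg
The Fabp7 match begins 171 bases before the annotated start. Of 32851 promoter windows of 300 bases, 2.61% held TAGGTCA and 16.3% held AGGTCA, while 7.15% held CACGTG and 0.938% held TTATGTAA. The Fabp3 window held none of the 4 motifs. A match of letters is a description of the sequence and not a measured binding site.

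The deposited signals were on a linear scale, with array medians between 231 and 269 and array maxima between 13026 and 14316. Before averaging, 6 pairs among the 24 columns were found to be near copies: in each pair no probe set brighter than 50 differed by more than 5%, with log2 ratios whose SD did not exceed 0.0418, against 0.217 to 0.516 in the 30 other pairs taken at the same circadian time. The ratios within a near-copy pair were spread evenly between 0.95 and 1.05, with 19.6% to 20.3% of probe sets in each of 5 equal bins, and 1 column of each pair carried more decimals than the other. In 5 of these pairs the columns were labelled 24 h apart, and in 1 they were both columns of 70 h. The copies were averaged into single profiles, giving 18 in all and 3 per circadian time. A spiked control, ThrX-3, split the columns into 2 groups. It read 513 to 1858 in 8 columns and 56.3 to 101 in the other 16. The labels name no array batch. In this text the term is only a short name for the ThrX-3 split, with the 8 high columns as the second batch. Whether the split arose from the arrays or from the handling of the RNA was not tested. The 8 columns are all those of CT 10 and CT 18, and no circadian time has columns in both batches. Batch is therefore fixed by circadian time, and fits with batch as a block separate them only through the assumed cosine shape. The ratio of the Gapdh control probe sets at the start and end of the transcript, a sign of RNA quality, was 0.0386 in 78 h replicate 2, 0.822 to 0.978 in the other 7 columns of the second batch and 1.03 to 1.15 in the first. Of the 6 profiles at CT 10 and CT 18, 4 carried skeletal muscle transcripts (Acta1 above 1000), and Alb, a liver transcript, reached 8621 in 78 h replicate 2. Nothing in the labels says whether samples were single animals or pools, so every p-value rests on the spread among these profiles, which may be technical. In whole glands, fewer cells of a type and less RNA per cell cannot be told apart.

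Fabp7 followed an ordered daily course, high from late subjective night to mid subjective day and lowest at CT 14, in the early subjective night. At CT 2 its signal was 400, 418 and 601, and at CT 6 it was 480, 595 and 690. At CT 10 the 3 profiles gave 229, 277 and 284. The 3 profiles of CT 14 gave 55.1, 67.0 and 74.8, and every other profile was higher, the next lowest being 133. At CT 18 the signal was 133, 166 and 223, and at CT 22 it was 247, 377 and 460. The order of the means was therefore CT 6, CT 2, CT 22, CT 10, CT 18 and CT 14. Ranges of neighbours overlapped along this order down to CT 10, whereas those of CT 10 and CT 18, and of CT 18 and CT 14, did not.

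The mean Fabp7 signal was 588 ± 105 at CT 6 and 65.6 ± 9.92 at CT 14 (SD, n = 3 each), a ratio of 8.96. Within the arrays, the CT 14 values lay between percentiles 10.4 and 16.3 of all probe sets, and the CT 6 values between percentiles 67.6 and 75.1, so the trough is dim and the size of the ratio depends on how dim signals are handled. On the scale used for the fits, log2(signal + 51), a 24 h cosine had an amplitude, from mean to peak, of 1.08 ± 0.12 (SE, n = 18), a fitted peak at CT 3.20 ± 0.42 h and a peak-to-trough ratio of 4.48. The cosine took up 82.6% of the variance of Fabp7, and the SD within a circadian time was 0.27. With a smaller offset of 1 the amplitude was 1.36, and with an offset 4 times larger it was 0.70.

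**Figure D1:**
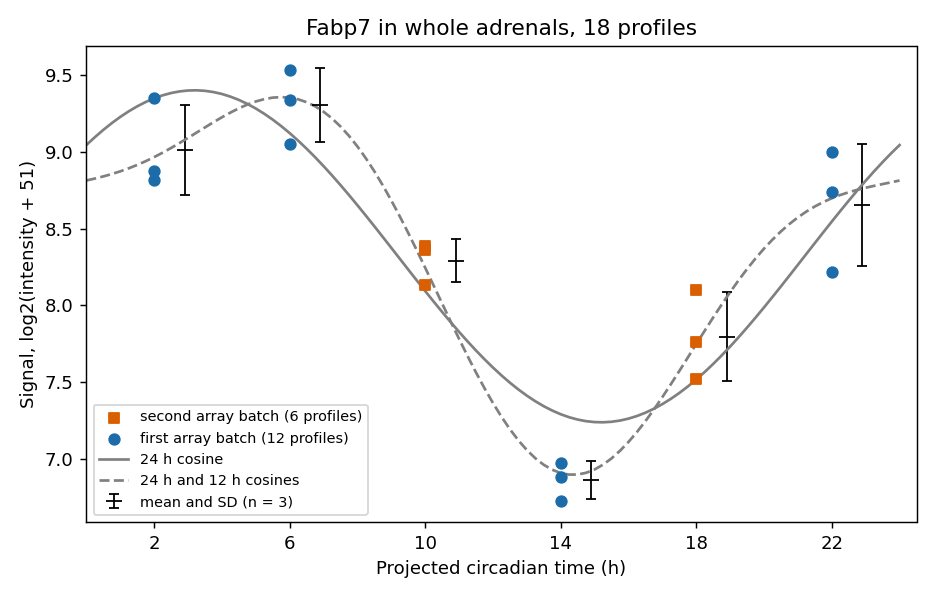
Fabp7 signal (log2 of intensity plus 51) in 18 profiles against projected circadian time, squares for the second array batch and circles for the first, with black bars for the mean and SD at each time (n = 3) drawn to the right of the points. The solid curve is the 24 h cosine and the dashed curve adds a 12 h cosine; the 3 profiles at CT 14 lie below all others.

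The Fabp7 course was also seen without the second array batch. With array batch as a block the amplitude was 1.23 ± 0.11, with a peak at CT 3.04, and in the 12 profiles of the first batch alone (CT 2, 6, 14 and 22) it was 1.25 ± 0.13, with a peak at CT 3.18. Both fits put the peak early in the subjective day, and the second batch alone, with only CT 10 and CT 18, could not be fitted. Without the 4 profiles that carried muscle transcripts the amplitude was 1.19 ± 0.12. Leaving out each profile in turn gave amplitudes between 1.01 and 1.15 and peaks between CT 3.05 and CT 3.41. Without 78 h replicate 2, the profile with the lowest Gapdh control ratio, the amplitude was 1.14.

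A single 24 h cosine did not follow the narrow trough closely. Adding a 12 h cosine raised the share of variance taken up to 93.1%, moved the fitted trough to CT 14.25 from CT 15.25, and put the fitted peak at CT 5.75. The 12 h amplitude of Fabp7 was 0.39 ± 0.08 (SE, n = 18), and its adjusted p was 0.0826 by limma's moderated F test with Benjamini-Hochberg adjustment over 27022 probe sets, which does not pass the threshold of 0.05. Across all probe sets 0.259% passed that test. Leaving out each profile in turn gave adjusted p-values between 0.0437 and 0.208, the lowest without 54 h replicate 2, the single profile whose removal brought the component past the threshold (amplitude 0.41). With array batch as a block the 12 h amplitude was 0.34, with an adjusted p of 0.157, and over all 24 columns, near copies counted separately, it was 0.38, with an adjusted p of 0.00308. With the block 2.99% of all probe sets passed, and none of the 7 tested probe sets of the relatives passed the 12 h test in either fit, with amplitudes without the block between 0.01 and 0.26.

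Of the 18 profiles, 13 lie in 1 cycle only, 6 in the second cycle and 7 in the first. The Fabp7 amplitude was 0.98 with a peak at CT 3.20 in the second cycle, against 0.999 with a peak at CT 3.96 in the first. The change of the 24 h rhythm between cycles, as the size of its vector, was 0.20 ± 0.28 (limma, adjusted p = 1). The mean level of Fabp7 was higher in the second cycle at all 6 circadian times, by 0.29 ± 0.09 on the log2 scale, and this difference did not pass adjustment (adjusted p = 0.609, limma). None of the 27022 tested probe sets was called for a level difference between the cycles (0%) or for a change of rhythm (0%). The unadjusted p was under 0.05 for 2172 and 537 of them (limma). On simulated data these tests recovered 69% of level differences and 28% of rhythm changes of 0.5 on the log2 scale, and 99% and 88% of those of 1.

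Of the 7 tested probe sets of Fabp3, Fabp4 and Fabp5, 0 passed the test for a 24 h rhythm (limma's moderated F test, Benjamini-Hochberg adjustment over 27022 probe sets), where 10.2% of all probe sets passed it. The eighth probe set of the relatives, Fabp4 1425809_at, fell below the signal filter. Adjusted p-values for the 7 lay between 0.314 and 0.833. A p-value above the threshold does not show that a transcript is flat, and the 95% intervals of the amplitudes are given with each gene below. They are symmetric about the estimate, although an amplitude cannot be negative. They are therefore approximate, and their position against 0 is not a test.

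Fabp3, the heart and brown fat type, ranged as widely as Fabp7, by 13.3-fold against 12.53-fold between the highest and the lowest profile, but scattered within circadian times. Its bright probe set 1416023_at gave 762, 882 and 975 at CT 2, 2010, 2026 and 2385 at CT 6, and 1415, 1758 and 1773 at CT 10. It gave 913, 2309 and 4138 at CT 14, 501, 1447 and 3112 at CT 18, and 383, 646 and 5100 at CT 22. Replicates agreed closely at CT 2, CT 6 and CT 10 and were scattered at the other times, where the highest and the lowest profiles of the whole series both fell at CT 22. The SD within a circadian time was 1.03 on the log2 scale, against 0.27 for Fabp7. The 24 h amplitude was 0.52 ± 0.30 (95% interval −0.10 to 1.14, adjusted p = 0.404 by limma), and the cosine took up 14.6% of the variance. Leaving out 82 h replicate 1 raised the amplitude to 0.81 (adjusted p = 0.0918), and without 58 h replicate 1 it was 0.36 (adjusted p = 0.646). The dim Fabp3 probe set 1444844_at stayed between 130 and 243, near the filter at 184, with an amplitude of 0.06 (95% interval −0.07 to 0.19, adjusted p = 0.735).

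**Figure D2:**
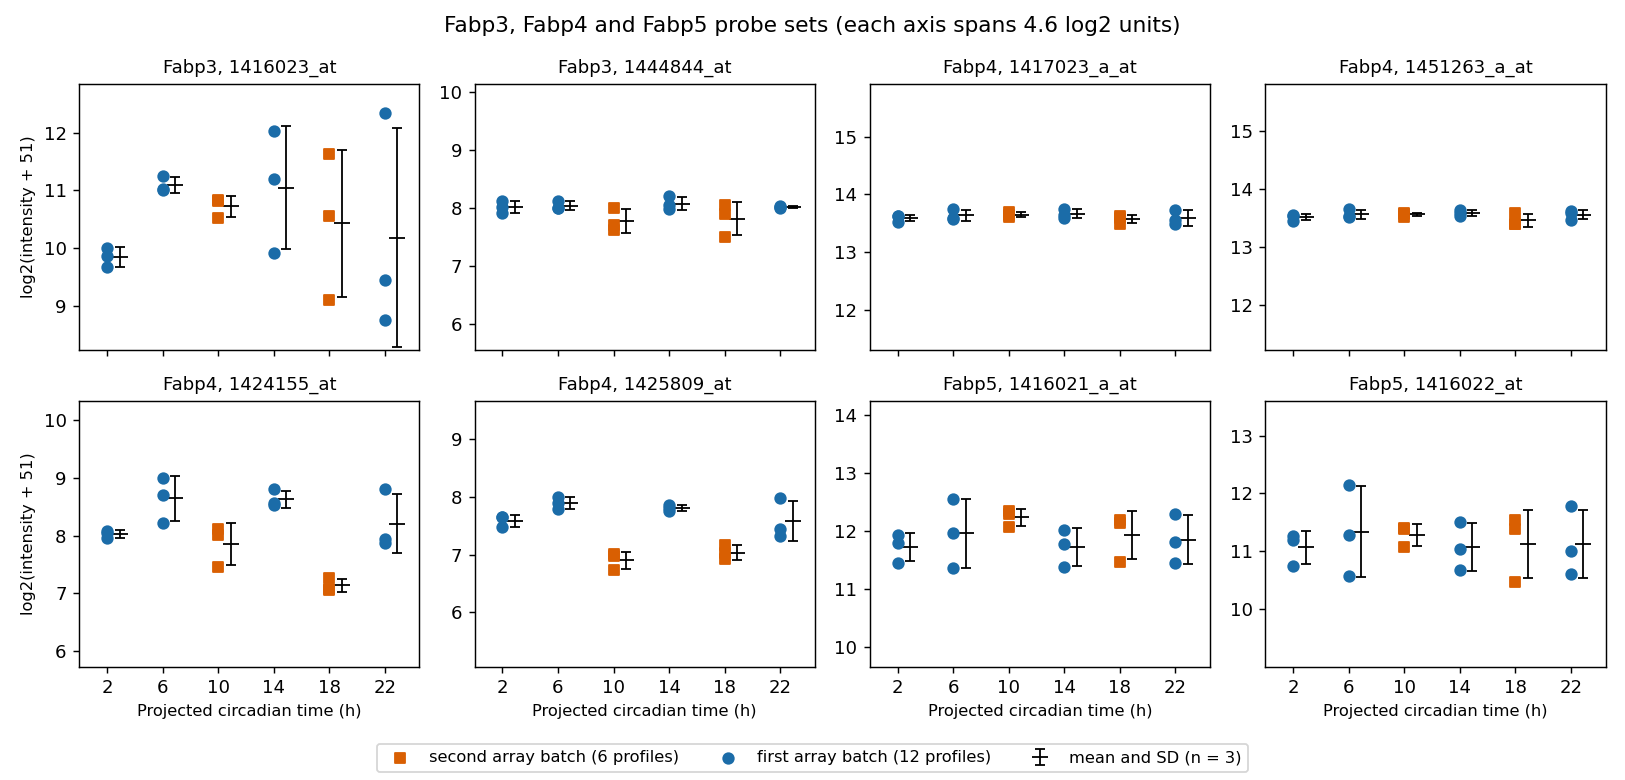
Signals (log2 of intensity plus 51) of the 8 probe sets of Fabp3, Fabp4 and Fabp5 against projected circadian time, squares for the second array batch and circles for the first, with black bars for the mean and SD at each time (n = 3). All panels span the same range of log2 units; Fabp3 1416023_at is scattered at CT 14, 18 and 22, and each bright Fabp4 probe set spans at most 1.21-fold.

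Fabp4, the adipocyte type, was read by a pair of very bright probe sets and a pair of dim ones. Over the 18 profiles 1417023_a_at lay between 11366 and 13736 with a median of 12479, and 1451263_a_at between 10674 and 12840 with a median of 11908. These means are 93.0% and 88.4% of the highest signal on an array, so both stood near the top of the scale, where changes may be compressed. Their amplitudes were 0.04 (95% interval −0.01 to 0.10, adjusted p = 0.447) and 0.03 (95% interval −0.02 to 0.09, adjusted p = 0.588) by limma. At the top of the scale, these intervals limit the change in signal and not the change in transcript.

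The dim Fabp4 probe set 1424155_at showed a different picture. It gave 196, 212 and 220 at CT 2, 248, 365 and 462 at CT 6, and 124, 206 and 227 at CT 10. At CT 14 it gave 318, 327 and 395, at CT 18 it gave 83.0, 83.6 and 103, and at CT 22 it gave 184, 194 and 394. The 3 profiles of CT 18 lay below all others, and both circadian times of the second array batch had lower means than the other 4, by 0.88 on the log2 scale. The Gapdh control ratio was lower in the same columns, and its part in this difference was not tested. The amplitude was 0.35 ± 0.17 with a fitted peak at CT 6.81 (adjusted p = 0.314, limma). With array batch as a block it was 0.42 ± 0.10 with a peak at CT 10.4, past the threshold (adjusted p = 0.0230), in a fit where 15.9% of all probe sets passed. Within the first batch alone it was 0.35 ± 0.13 (adjusted p = 0.174), where 10.1% passed. The unfiltered probe set 1425809_at lay between 54.7 and 205 and was lower in the second batch by 0.75. Its amplitude in the fit without a filter was 0.19 (adjusted p = 0.554), where 5.28% of probe sets passed.

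Fabp5, the epidermal type, was well expressed at every time. Probe set 1416021_a_at gave 2752, 3483 and 3836 at CT 2, 2572, 3928 and 5953 at CT 6, and 4238, 4966 and 5153 at CT 10. It gave 2594, 3464 and 4081 at CT 14, 2765, 4441 and 4634 at CT 18, and 2746, 3524 and 4993 at CT 22. Ranges of neighbours in the order of the means overlapped at every step. The amplitude was 0.13 ± 0.12 (95% interval −0.11 to 0.38, adjusted p = 0.663, limma), and that of the second probe set, 1416022_at, which ran between 1358 and 4496, was 0.11 ± 0.14 (95% interval −0.20 to 0.41, adjusted p = 0.833).

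**Figure D3:**
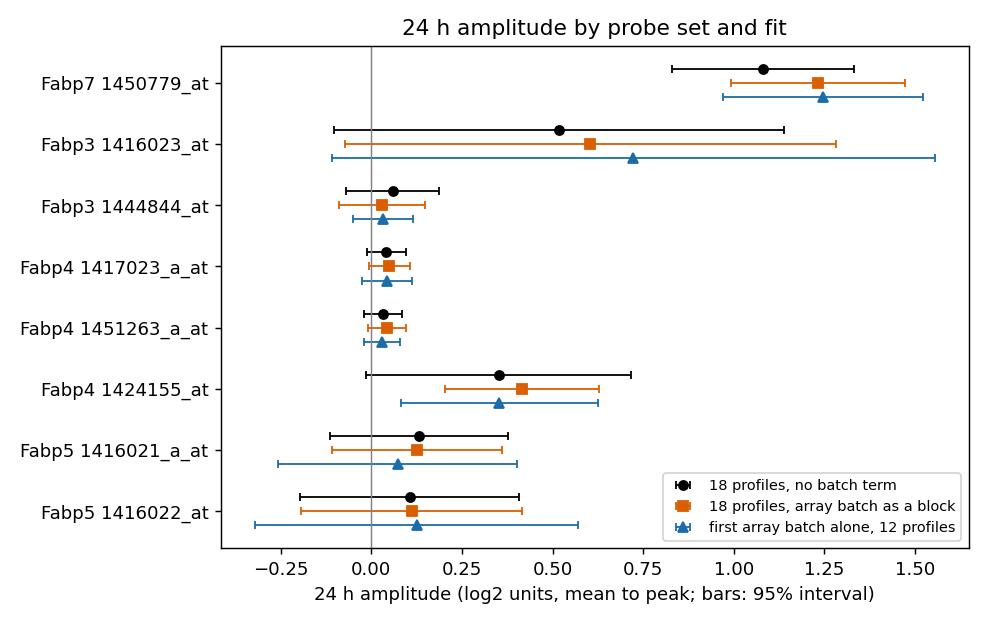
The 24 h amplitude (log2 units, mean to peak) of the 8 probe sets that passed the signal filter, with 95% intervals, from the fit over 18 profiles, the fit with array batch as a block and the fit on the first batch alone. Fabp7 lies between 1.08 and 1.25 in the 3 fits. Among the relatives Fabp4 1424155_at has an interval above 0 in the block fit (adjusted p = 0.0230, limma) and in the first batch (adjusted p = 0.174, limma). The intervals are approximate and are not a test.

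The log2 ratio of Fabp7 to each relative in the same profile carried a 24 h cosine of similar size throughout. Amplitudes of the 8 ratios ran from 0.89 ± 0.22, against Fabp4 1425809_at, to 1.41 ± 0.31, against Fabp3 1416023_at, with peaks between CT 1.96 and CT 3.28. These ratios compare courses within an array, and since Fabp7 was chosen for its amplitude they carry no test. Second minus first cycle, the level difference on the log2 scale was 1.21 ± 0.42 for Fabp3 1416023_at, −0.01 ± 0.09 for Fabp3 1444844_at, and 0.41 ± 0.14 and 0.53 ± 0.18 for the Fabp5 probe sets. For Fabp4 it was 0.08 ± 0.04 and 0.04 ± 0.03 in the bright probe sets and 0.32 ± 0.14 in 1424155_at. None of these 7 differences passed adjustment (adjusted p between 0.609 and 0.981, limma).

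Fabp3 levels moved with markers of brown fat. The summed signal of Ucp1, Cidea, Cox8b and Elovl3, all 4 of the listed markers, ran from 4474 to 28582 over the profiles, and no marker was at 0. Ucp1, the uncoupling protein that defines brown fat, ran from 516 to 9297. At CT 22 the profile with the highest Fabp3 signal, 82 h replicate 1, had the highest brown fat sum, 28582, and the profile with the lowest, 58 h replicate 1, had the lowest sum, 4474. Across 18 profiles Fabp3 1416023_at correlated with the log2 sum with Pearson's r = 0.953 and Spearman's rho = 0.969 (two-sided permutation p = 1e-05 for each, the smallest that 100000 permutations can give, adjusted p = 0.00044 over 44 relations of 4 genes with 11 marker lists). Pearson's r was 0.9498 without the 2 profiles farthest from the median sum, 0.994 within the second batch, 0.947 within the first and 0.952 after the mean of each circadian time was removed. The part of brown fat in the Fabp3 scatter was not tested further.

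**Figure D4:**
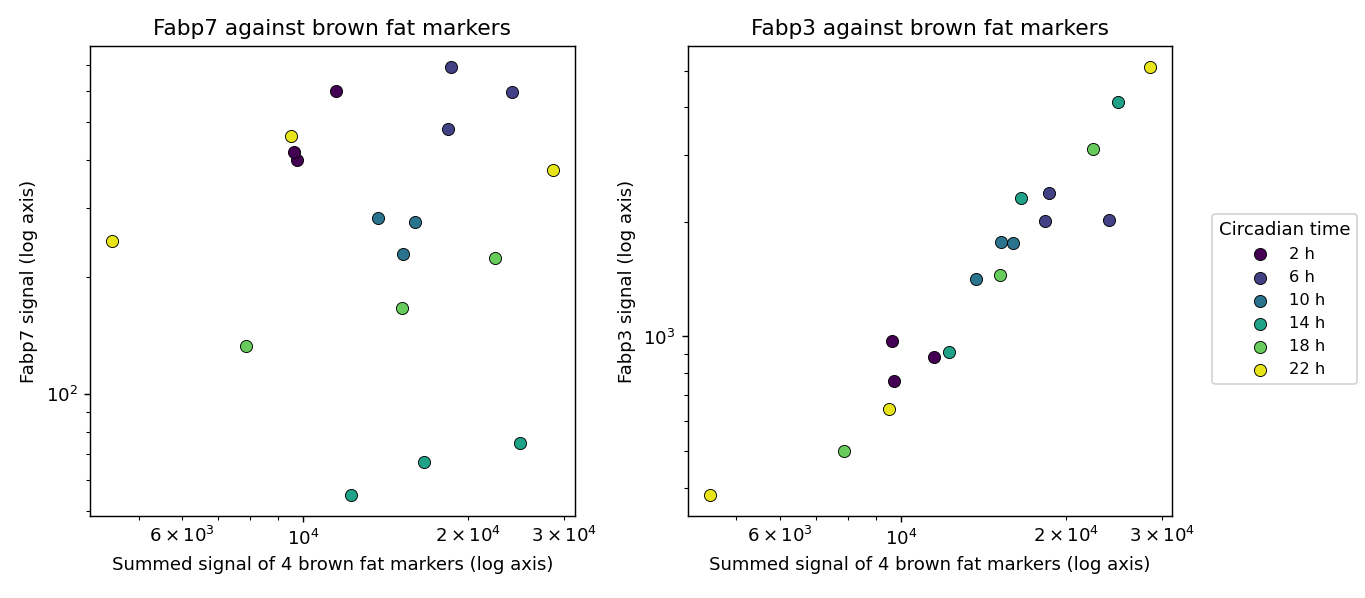
Signals of Fabp7 (left) and Fabp3 1416023_at (right) against the summed signal of 4 brown fat markers in 18 profiles, both axes logarithmic, coloured by circadian time. Fabp3 rises along the marker sum (r = 0.953), while Fabp7 separates by circadian time (r = 0.02).

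The brightest Fabp4 probe set, 1417023_a_at, passed with both fat sums, and Fabp5 with the periadrenal one alone. This Fabp4 signal spanned 1.21-fold near the top of the scale, where changes may be compressed. The other Fabp4 probe sets were not set against the marker lists. Fabp4 1417023_a_at had r = 0.782 and rho = 0.641 with the brown fat sum (permutation p adjusted over the 44 relations, 0.00264 and 0.0383). Against the periadrenal fat sum of Adipoq, Cidec, Lep and Retn, which ran from 10277 to 21070, it had r = 0.717 and rho = 0.775 (adjusted p = 0.0132 and 0.00484). Fabp5 1416021_a_at had r = 0.674 and rho = 0.711 with the same periadrenal sum (adjusted p = 0.0289 and 0.0181), 0.722 without the 2 farthest profiles, and with the brown fat sum r = 0.597 and rho = 0.531 (adjusted p = 0.0532 and 0.123). For Fabp4, leaving out the 2 profiles farthest from the median sum gave r = 0.652 with brown fat and 0.714 with periadrenal fat. Within batches these r values were 0.399 in the second and 0.919 in the first for Fabp4 against periadrenal fat, 0.630 and 0.826 for Fabp4 against brown fat, and 0.533 and 0.679 for Fabp5. Against the keratinocyte markers Krt5, Krt14 and Krt10, Fabp5 had r = −0.609 and rho = −0.697 (adjusted p = 0.0532 and 0.0181), and against the glial markers 0.592 and 0.672 (0.0544 and 0.0230), so that only the rank measure passed. Plin1 and Cfd, also listed for periadrenal fat, had no probe set named here. Lep (amplitude 0.95, adjusted p = 0.00905) and Cidec (0.60, 0.0438) passed the 24 h test by limma, and Adipoq and Retn did not. In the periadrenal sum, cell number and RNA per cell cannot be told apart.

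For Fabp7 neither relation to fat passed. Its r with the brown fat sum was 0.02 and its rho 0.03 (permutation p adjusted over the 44 relations, 0.949 and 0.965), and its r with the periadrenal fat sum was −0.33 and its rho −0.41 (adjusted p = 0.458 and 0.258). Schwann and satellite glia, cell types in which Fabp7 is known, were read by Sox10, S100b, Cdh19 and Gfap, whose sum ran only from 1314 to 1700. Fabp7 had r = −0.15 and rho = −0.27 with it (adjusted p = 0.834 and 0.489). After the mean of each circadian time was removed, r turned positive with the glial sum (0.687) and with the macrophage sum (0.674, against −0.14 before), and it was 0.584 with the brown fat sum, all given as descriptions with no test. The largest r over all profiles for Fabp7 among the 11 lists was −0.55 with the chromaffin markers Th, Pnmt, Chga and Dbh (adjusted p = 0.0829; rho = −0.42, adjusted p = 0.251), with −0.75 within each batch. It was −0.35 without the 2 farthest profiles and −0.29 after the mean of each circadian time was removed. Of these markers Pnmt itself passed the 24 h test (amplitude 0.66, peak CT 17.6, adjusted p = 0.0130, limma), and Th, Chga and Dbh did not. In the chromaffin sum, too, cell number and RNA per cell cannot be told apart. None of the 11 relations of Fabp7 passed adjustment, and the part of any cell type in its course was not tested further.

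Set beside the clock, the fitted 24 h peak of Fabp7 fell between those of Arntl and Nr1d1. Arntl encodes the activator BMAL1 and Nr1d1 the repressor REV-ERB alpha. Arntl had a fitted peak at CT 22.5 with an amplitude of 2.18, and Nr1d1 at CT 7.28 with an amplitude of 1.77. Nr1d1 averaged 402 at CT 2, 1650 at CT 6 and 1439 at CT 10. It averaged 231 at CT 14, 125 at CT 18 and 177 at CT 22. The means of Fabp7 and Nr1d1 were both highest at CT 6. The lowest mean was at CT 14 for Fabp7 and at CT 18 for Nr1d1. With a 12 h cosine added, the fitted Fabp7 peak was at CT 5.75. A link between these genes was not tested. Across the 18 profiles Pearson's r with Fabp7, a description of profiles that share arrays and times, was 0.52 for Nr1d1 and 0.18 for Arntl. For the relatives it was −0.04 for Fabp3, −0.04 for Fabp4 and 0.20 for Fabp5.

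Among 13878 other genes, each read by its brightest probe set, none had r above 0.9 or below −0.9 with Fabp7 over the 18 profiles. The 8 highest were Anxa5, which encodes a phospholipid-binding annexin (r = 0.881), Grtp1 (0.877), Rnf144a, a ubiquitin ligase (0.864), the linker histone H1f2 (0.855), the DNA repair factor Xpa (0.850), Cercam (0.842), Armcx5 (0.842) and B230217C12Rik (0.841). Their amplitudes, between 0.22 and 0.37, were smaller than that of Fabp7, and their fitted peaks lay between CT 1.98 and CT 4.34. The 5 lowest were Timp3, an inhibitor of matrix metalloproteinases (r = −0.897), Gm12843 (−0.886), Nanp, an enzyme of sialic acid synthesis (−0.882), Maco1 (−0.881) and Sec23b, a COPII coat subunit (−0.880). Their peaks lay between CT 13.99 and CT 16.04. With batch means removed, r was 0.931 for Rnf144a, 0.911 for H1f2 and −0.904 for Nanp, and within 0.9 for the other genes named here. Within the first batch r ran from 0.878 to 0.959 for the 8 highest and from −0.904 to −0.984 for the 5 lowest. Counts past 0.9 over all genes are not given for these settings. The named genes were picked as the extremes of the measure, so the values carry no test.

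Genes that take up, store, burn or make fatty acids were read as lists around the family. Of 80 listed genes 70 were tested, and 11 passed the 24 h test (15.7%), against 12.8% of all 13879 genes. Their median amplitude was 0.14, against 0.11 for all genes, so the lists as a whole stood near the background. The count was 16 with array batch as a block, where 17.8% of all genes passed, and 10 within the first batch, where 12.3% passed. Without the 4 profiles with muscle transcripts it was 7, and leaving out each profile in turn gave 7 to 17. It was 7 without 38 h replicate 1, 46 h replicate 1, 46 h replicate 2, 62 h replicate 1 or the joined 70 h profile, and 17 without 82 h replicate 1. The share of all genes that passed is not given for the fits with profiles left out. These counts therefore describe no change particular to the lists.

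Other lipid binding proteins had 0 of 6 tested genes past the threshold, against 12.8% of all genes. With array batch as a block 1 passed, where 17.8% of all genes did. This was Crabp1, a retinoic acid binding protein (amplitude 0.24, adjusted p = 0.0396, limma). Crabp1 also passed within the first batch (amplitude 0.38, adjusted p = 0.00676, limma), where 12.3% of all genes did. Pmp2, the myelin member of the family, had an amplitude of 0.34 (adjusted p = 0.189), which was 0.09 with the block. Fabp1, the liver type, fell below the filter with a median of 37.8 and reached 2197 in 78 h replicate 2, the profile with the highest Alb signal. Fabp9, Fabp12 and Crabp2 were also below the filter, with highest signals of 101, 251 and 164.

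Of the 14 genes of uptake and activation 2 passed (14.3%), in a fit where 12.8% of all genes passed. Slc27a2 is a fatty acid transporter and very long-chain acyl-CoA synthetase (amplitude 0.52, peak CT 11.7, adjusted p = 0.0249, limma). Acsl3 is an acyl-CoA synthetase of lipid droplets (0.23, CT 16.8, 0.00582). Storage and lipolysis also had 2 of 14 (14.3%). Plin5, a lipid droplet coat protein of oxidative tissues, peaked at CT 2.23 with an amplitude of 0.73 (adjusted p = 0.00312), while G0s2, an inhibitor of adipose triglyceride lipase, peaked at CT 17.0 (0.42, adjusted p = 0.0465). Oxidation had 3 of 14 (21.4%), all with peaks in the subjective day. Of the 1781 genes called among all genes, 993 peaked between CT 22 and CT 10. Ehhadh, a peroxisomal beta-oxidation enzyme, had an amplitude of 0.56 at CT 9.59 (adjusted p = 0.0280), Cpt1c 0.28 at CT 5.79 and Cpt1a, which admits fatty acids to mitochondria, 0.17 at CT 8.85. Within the first batch Slc27a2 (adjusted p = 0.0963, limma) and Cpt1c (0.0814) did not pass, while the other genes named in this paragraph did. Slc27a2 was highest, at 737, in 78 h replicate 2, the profile with the highest Alb signal.

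Synthesis had 4 of 14 past the threshold (28.6%), in a fit where 12.8% of all genes passed. The count of a single list was not tested against that share. Fads1, a desaturase of polyunsaturated fatty acids, had an amplitude of 0.35 at CT 16.9 (adjusted p = 0.000122, limma), and Fads2, another desaturase, 0.16 at CT 15.1 (adjusted p = 0.0396). Elovl5, an elongase, had 0.15 at CT 22.6 and Me1, which supplies NADPH, 0.12 at CT 1.43. Both desaturases peaked within the interval, CT 14 to CT 18, in which Fabp7 was lowest. Among all genes, 788 of the 1781 called peaked between CT 10 and CT 22, and a link to Fabp7 was not tested. None of the 8 lipid-activated receptors and partners passed, with amplitudes from 0.04 for Ppard to 0.45 for Ppargc1b. With array batch as a block 1 did, Ppargc1a (0.16, adjusted p = 0.0438, limma), where 17.8% of all genes passed.

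**Figure D5:**
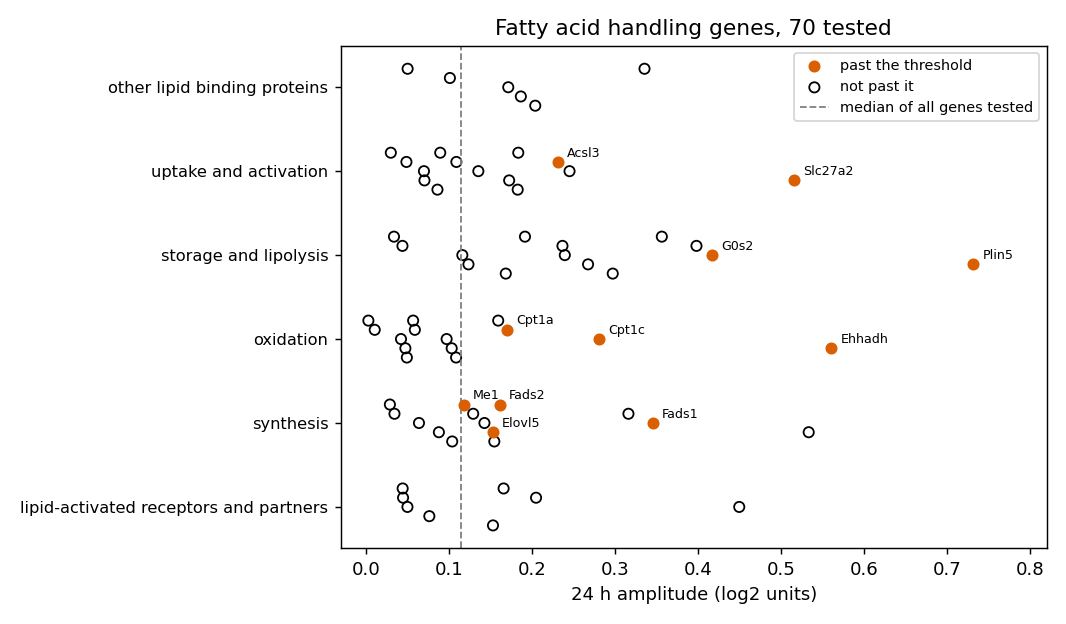
The 24 h amplitude (log2 units) of 70 tested fatty acid handling genes in 6 lists, filled orange where the gene passed the 24 h test and open where it did not, with a dashed line at the median of all genes tested. The 11 genes past the threshold run from Me1 at 0.12 to Plin5 at 0.73.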

How the data were processed

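Whole adrenal RNA was measured on Affymetrix arrays, and the deposited values are linear intensity signals, 1 per probe set. The authors' summarisation and scaling method is not stated in the labels. Signals were analysed as log2(signal + 51), where 51 is the 10th percentile, with no further normalization, and a filter removed those with a mean log2 value below percentile 40, equal to a signal of 184. A single symbol was given for 34958 probe sets, several for 932, and none for 9211. The rules for near copies and array batches date from after the values were known. Cosines of 24 h and 12 h were fitted with limma 3.58.1 in R 4.3.3 (moderated F test, Benjamini-Hochberg adjustment over all probe sets or genes, threshold 0.05). The named genes were all members, the 8 genes most and the 5 least like Fabp7, and up to 4 genes past the threshold per list. Members and lists were chosen with earlier results of these data known. On simulated data over 27022 probe sets, the 24 h test recovered 92% of rhythms of amplitude 0.5 and 99% of amplitude 1. In all simulations the noise was independent among profiles, without batch or tissue differences, and changes were given to probe sets picked at random. These shares therefore do not hold for a probe set as scattered as Fabp3 1416023_at, with an SD of 1.03 within a circadian time. Arrays give no read depth, so their number limits the precision. Alternatives covered the offset, the filter, the batch, the near copies, the muscle transcripts and each profile left out.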

Additional observations from a re-analysis of the deposited data

How the results depend on the processing

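The absence of a called 24 h rhythm in the 7 probe sets of the Fabp7 relatives held in the settings tried except with array batch as a block, where 1 passed (Fabp4 1424155_at). The Fabp7 amplitude moved by more than the spread between replicates with the offset alone, to 1.36 with an offset of 1 and to 0.70 with an offset 4 times larger, and ranged from 1.01 to 1.15 over the profiles left out in turn, with 0 relatives called in each of these fits. The 12 h component of the 8 probe sets had 0 calls, 1 over all 24 columns, and 0 to 1 with a profile left out. The fatty acid lists, with 11 calls, had 21 over all 24 columns and 20 with the replicate block. They had 7 without the profiles with muscle transcripts and 7 to 17 with a profile left out. The share of all genes that passed in these settings is not given, so the counts describe no change particular to the lists. The settings with 24 columns count near copies as separate samples, and for the other changes the cause was not tested. Replicate numbers did not pair the samples: over 66 pairs of time points the correlation of deviations ran from −0.53 to 0.52, with 18 above 0.1. With the replicate block over all 24 columns, the Fabp7 amplitude was 1.13 and 0 relatives were called. No relative and no 12 h component passed in the main fit, so these probe sets held no called direction that could turn. The uncalled Fabp3 1444844_at had a fitted peak at CT 1.61. That peak was at CT 14.8 with array batch as a block and at CT 12.4 within the first batch. The settings for the fatty acid genes, the muscle profiles and further 12 h fits were chosen after seeing the data.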
